A study of Mus musculus with 33 samples.

Results

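The 3 Msx homeobox genes of the mouse, Msx1, Msx2 and Msx3, were followed in RNA sequencing libraries of embryonic tissue that the labels call frontal bone of the calvaria. The genes were taken by symbol from a table of counts per gene, which holds 55401 genes, and all 3 were among the 20073 genes with enough counts to be tested. The 33 libraries cover 11 stages of gestation, 3 at each: every 0.5 days between E8.5 and E12.5, then E13.5 and E14.5. Stage is the only difference the labels give between groups: no strain, genotype, sex, treatment or pooling of embryos is named. The labels do not tell whether libraries of the same stage are from different embryos, so p-values measure the spread between these libraries, which may be technical. The series title concerns extracellular vesicles that carry citrate and mineralization, and the stages were compared here to describe how the 3 genes varied over this window of development.

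Msx genes encode homeodomain transcription factors that mostly act as repressors, and Msx1 and Msx2 are standard targets of bone morphogenetic protein (BMP) signalling in neural crest, skull vault mesenchyme, tooth germs and limb buds. In humans, altered MSX2 function disturbs closure of the skull vault, and MSX1 is required for normal teeth and palate in mouse and human. Msx3 is known in the mouse from the dorsal neural tube and is not a known skeletal gene.

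All 3 genes lie on the minus strand of the GRCm38 build, with 2 exons each. Msx1 (ENSMUSG00000048450) spans chr5:37820485-37824583 with 3097 exonic bases, Msx2 (ENSMUSG00000021469) spans chr13:53466884-53473074 with 3279, and Msx3 (ENSMUSG00000025469) spans chr7:140046157-140049089 with 2356. Reads could be shared between members where their transcripts are alike. The longest stretch shared without a mismatch between whole transcripts was 22 bases for Msx1 and Msx2, 18 bases for Msx1 and Msx3, and 15 bases for Msx2 and Msx3. A RefSeq antisense RNA, Msx1os, covers 38.3% of the exonic bases of Msx1, and the RefSeq long noncoding RNA Gm33763 spans the whole of Msx2. The strand setting of the counting is not given in the sources used here, so reads of these partners cannot be told apart from those of Msx1 and Msx2. RefSeq lists no such partner over Msx3.

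Msx1 and Msx2 rose at E12 against both E11.5 and E11, described below, while Msx3 rose only against E11.5. The promoters of Msx1 and Msx2 are shown. Each runs from 250 bases before to 50 bases after the RefSeq start (GRCm38.p6, chr5:37824536-37824835 and chr13:53472731-53473030, minus strand), with capitals at matches on either strand to TAATT, the core of many homeodomain sites, to the CCAAT box, to GGGCGG, known as a GC box, and to the TATA box motif TATAAA:
Msx1: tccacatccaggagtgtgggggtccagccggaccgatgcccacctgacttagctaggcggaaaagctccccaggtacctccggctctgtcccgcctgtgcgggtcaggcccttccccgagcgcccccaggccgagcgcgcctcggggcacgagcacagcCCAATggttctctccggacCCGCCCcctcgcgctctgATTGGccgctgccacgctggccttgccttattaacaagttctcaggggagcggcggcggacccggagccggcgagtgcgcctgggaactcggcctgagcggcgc
Msx2: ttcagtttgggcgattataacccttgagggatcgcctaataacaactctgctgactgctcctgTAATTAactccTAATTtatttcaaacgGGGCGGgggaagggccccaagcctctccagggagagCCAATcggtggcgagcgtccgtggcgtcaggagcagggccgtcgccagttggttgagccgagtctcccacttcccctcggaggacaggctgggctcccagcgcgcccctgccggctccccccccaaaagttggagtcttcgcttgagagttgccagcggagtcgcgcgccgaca
Msx2 held 3 TAATT matches, of which a pair overlaps, and Msx1 held 0. Both held CCAAT and GGGCGG, and neither held TATAAA. The Msx3 promoter, not printed here, held 1 CCAAT, 2 GGGCGG, 1 TATAAA and 0 TAATT matches. Of 32851 promoters of this length, 27.0% held TAATT, 37.4% CCAAT, 35.7% GGGCGG and 13.6% TATAAA. There were 29 CpG dinucleotides in the Msx1 promoter and 22 in the Msx2 promoter, against a median of 7 over all promoters. These matches describe the letters in the window and no binding was measured.

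Library totals ran from 14516518 to 19964404 counts (median 17081223). Levels are given as CPM, that is counts scaled to a common library size with trimmed-mean (TMM) factors. The labelled tissue was checked against bone markers. Runx2, the master regulator of osteoblasts, averaged 0.576 ± 0.117 CPM at E8.5 and 45.1 ± 3.06 at E14.5 (SD, n = 3), and Ibsp, a bone matrix protein, was at 0 counts at E9 and E9.5. The markers Sp7 and Col1a1 were also higher at E14.5 than at E8.5 in all libraries, but the marker Alpl was not. Alpl had 43.7, 41.6 and 37.2 CPM in E8.5 libraries a, b and c, and 44.3, 41.7 and 45.7 at E14.5. In between it was lower, with 10.7, 10.8 and 11.2 CPM at E11. The libraries labelled E11.5, E12 and E13.5 stood apart. Stages are named throughout as the labels give them, and whether the labels and dissections of these libraries are right could not be checked, which bears on every step into or out of them. At E11.5 Ibsp averaged 15.1 ± 0.634 CPM, while it was 0.0370 ± 0.0641 at E12 and 0.204 ± 0.0780 at E12.5, and the first principal component of all tested genes placed E11.5 (mean 84.1) beyond E12 (22.1) and E12.5 (41.9). Sp7 was likewise higher at E11.5 than at E12 and E12.5. Runx2 had 14.3, 12.9 and 10.6 CPM in E11.5 libraries a, b and c, below those of E12.5 (14.7, 15.3 and 16.1). The first principal component also placed E10.5 (mean -46.4) before E10 (-37.9), out of stage order. Whether the labels of those libraries are right could not be checked either, which bears on the steps at E10, E10.5 and E11. The 3 libraries of E12 correlated with each other at 0.965 to 0.986 and the lowest pair of E13.5 at 0.975, whereas every pair of the other stages reached at least 0.988. Ribosomal protein genes took 8.38%, 6.21% and 4.15% of counts in E12 libraries a, b and c, and 3.56%, 3.55% and 5.85% in E13.5 libraries a, b and c. As these are bulk samples, fewer cells of a type and less RNA per cell cannot be told apart.

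Msx1 was present at every stage, was highest at E10 and lowest at E11.5, and had less at E14.5 than in the first libraries, those of E8.5. The levels in libraries a, b and c were 47.4, 49.1 and 50.2 CPM at E8.5, 57.2, 64.0 and 67.6 at E9, 59.3, 57.0 and 57.3 at E9.5, and 78.6, 81.8 and 82.1 at E10. They were 62.0, 62.2 and 60.3 CPM at E10.5, 36.9, 38.5 and 37.5 at E11, and 26.3, 26.4 and 21.8 at E11.5. They were 70.8, 72.8 and 71.4 CPM at E12, 39.1, 35.3 and 42.5 at E12.5, 36.9, 37.6 and 48.0 at E13.5, and 25.8, 31.5 and 29.9 at E14.5. The E10 libraries lay above those of every other stage, and E12 was second, above all libraries of E9, which was next in order of the mean. Of the 10 neighbouring pairs in that order, 5 overlapped: E9 with E10.5, E8.5 with E13.5, E13.5 with E12.5, E12.5 with E11, and E14.5 with E11.5. How many of all genes separate in this way is not given here. Overlaps and separations of libraries, for Msx1 and for Msx2 and Msx3 below, therefore only describe the levels. The highest stage mean was 3.25 times the lowest. Msx1 averaged 29.1 ± 2.95 CPM at E14.5 and 48.9 ± 1.42 at E8.5 (SD, n = 3 each), a log2 fold change of -0.75 ± 0.10 (SE) with an adjusted p of 3.69e-08 by edgeR's quasi-likelihood test with Benjamini-Hochberg adjustment over all tested genes. In that comparison 74.6% of all tested genes passed the threshold of 0.05, and 33.5% were lower at E14.5, as Msx1 was. At E10.5 relative to E8.5 Msx1 rose by a log2 fold change of 0.33 ± 0.09 (edgeR adjusted p = 0.00404, 49.5% of genes passing). Msx1 fell at E12.5 relative to E10.5 (-0.66 ± 0.09, adjusted p = 1.37e-06, 35.9% of genes passing) and at E14.5 relative to E12.5 (-0.42 ± 0.09, adjusted p = 0.00039, 53.8% passing). The rise at E10.5 became -0.12 (edgeR adjusted p = 0.477) in a fit that removed the trend of counts with gene length. That trend was fitted to counts not scaled for library size, so this setting also took out each library's overall level a second time. Under it the median log2 fold change of all genes at E10.5 against E8.5 was -0.39, against 0.09 in the main fit. Values given below with the gene length trend removed can carry such shifts, so an effect of gene length cannot be read from them.

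Msx2 had a sharp high point at E12 and a low point at E11.5, and its libraries at the other 9 stages lay between 10.7 and 24.1 CPM. Its levels in libraries a, b and c were 14.6, 15.6 and 13.4 CPM at E8.5, 20.2, 17.7 and 23.5 at E9, 11.3, 11.6 and 11.4 at E9.5, and 13.1, 15.3 and 14.6 at E10. They were 11.6, 10.7 and 13.9 CPM at E10.5, 10.9, 13.98 and 14.6 at E11, and 7.46, 6.65 and 4.47 at E11.5. They were 53.7, 47.1 and 39.0 CPM at E12, 14.3, 14.02 and 14.9 at E12.5, 16.6, 15.3 and 24.1 at E13.5, and 16.8, 19.97 and 19.0 at E14.5. The lowest E12 library lay above every library of the other 10 stages, and the E11.5 libraries lay below all others. Among the neighbouring pairs in order of the mean, 7 of 10 overlapped, and the exceptions were E12 above E9, E14.5 above E8.5, and E9.5 above E11.5. At E14.5 Msx2 averaged 18.6 ± 1.60 CPM, against 14.54 ± 1.12 at E8.5, a log2 fold change of 0.36 ± 0.16 with an edgeR adjusted p of 0.0468. That call is fragile: it was lost in 20 of 33 fits that each left out 1 library. With the gene length trend removed the value was -0.24 (edgeR adjusted p = 0.286), while the median of all genes shifted by -0.58. The log2 fold changes of Msx2 at E10.5 against E8.5, -0.27 ± 0.17, at E12.5 against E10.5, 0.25 ± 0.16, and at E14.5 against E12.5, 0.37 ± 0.16, did not pass (edgeR adjusted p = 0.187, 0.239 and 0.053).

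Msx3 fell over the window until no read was counted at E14.5, though not at every step. The levels in libraries a, b and c were 21.9, 20.4 and 20.2 CPM at E8.5, 14.2, 10.3 and 9.86 at E9, 15.2, 13.7 and 13.4 at E9.5, and 8.84, 10.997 and 8.66 at E10. They were 5.16, 7.41 and 4.06 CPM at E10.5, 3.24, 1.997 and 2.11 at E11, and 0.636, 0.655 and 1.00 at E11.5. They were 2.96, 2.52 and 1.61 CPM at E12, 1.205, 1.35 and 1.13 at E12.5, and 0.225, 0.357 and 0.370 at E13.5. All libraries of E8.5 lay above those of every later stage, and neighbouring stages in order of the mean overlapped in 3 of 10 pairs (E9.5 with E9, E9 with E10, and E11 with E12). At E14.5 all 3 libraries had 0 counts, which allows up to 0.0507 CPM over the group when 3 counts are taken as the floor, against 946 counts in all at E8.5. Msx3 at E14.5 was thus at least 411-fold lower relative to E8.5 and at least 24.3-fold lower relative to E12.5. It had also fallen at E10.5 relative to E8.5, with a log2 fold change of -1.91 ± 0.20 (edgeR adjusted p = 3.84e-09), and at E12.5 relative to E10.5, with -2.16 ± 0.25 (adjusted p = 5.46e-08). These bounds and floors cover counting error only.

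**Figure D1:**
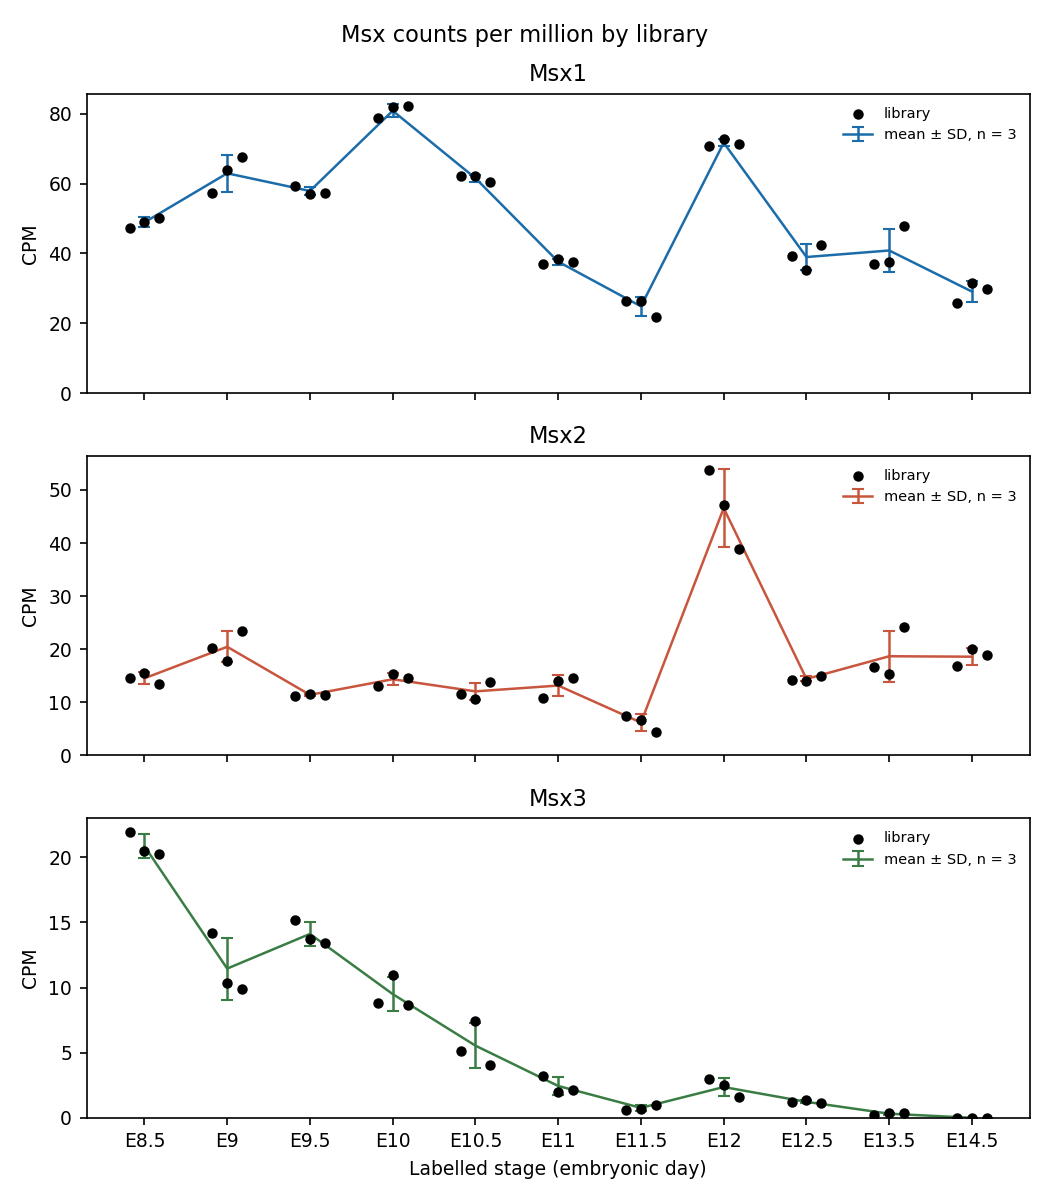
CPM of Msx1, Msx2 and Msx3 (vertical axes, linear) in each of 33 libraries (points) by labelled stage, with stage means and SD (lines and bars, n = 3). Msx1 peaks at E10 and E12, Msx2 at E12, and Msx3 declines to 0 at E14.5.

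Over all stages, each gene changed (edgeR adjusted p = 3.76e-16 for Msx1, 7.05e-14 for Msx2 and 1.54e-19 for Msx3), as did 95.3% of all tested genes. Of the 10 steps between a stage and the stage before it, 8 passed for Msx1, 5 for Msx2 and 9 for Msx3, against a median of 4 over all tested genes. As many or more passing steps were found in 4.19% of genes for Msx1, 34.6% for Msx2 and 1.17% for Msx3. The share of all genes passing ranged widely among the steps, with 20.2% at E9, 22.8% at E9.5, 26.7% at E10, 8.46% at E10.5, 36.5% at E11, 23.0% at E11.5, 68.8% at E12, 63.0% at E12.5, 53.1% at E13.5 and 50.9% at E14.5, each against the stage before. Msx1 rose at E9 (log2 fold change 0.36), E10 (0.48) and E12 (1.53), and fell at E10.5 (-0.39), E11 (-0.71), E11.5 (-0.60), E12.5 (-0.88) and E14.5 (-0.49). At E9.5 and E13.5 its values were -0.12 and 0.07, which did not pass. Msx2 rose at E9 (0.49) and E12 (2.91) and fell at E9.5 (-0.84), E11.5 (-1.09) and E12.5 (-1.69). The rises at E9 no longer passed with the gene length trend removed (0.20 for Msx1 and 0.33 for Msx2), where the median of all genes shifted by -0.18. The rise of Msx2 was also lost without E8.5 library a or c or E9 library a or c (0.39 to 0.50 there). Msx3 fell at 8 of the 9 steps that passed, with log2 fold changes between -0.57 and -1.93 at the 7 of them with reads on both sides, and rose at E12 (1.59). Its fall at E10 was lost without E9.5 library a or E10 library a or c (-0.51 to -0.52) and with library totals alone (-0.48), its fall at E10.5 without E10 library b or E10.5 library a or c (-0.59 to -0.73), and its fall at E12.5 without E12 library a (-0.69). At E14.5 it was at least 6.27-fold lower than at E13.5, where 17 counts were left.

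**Figure D2:**
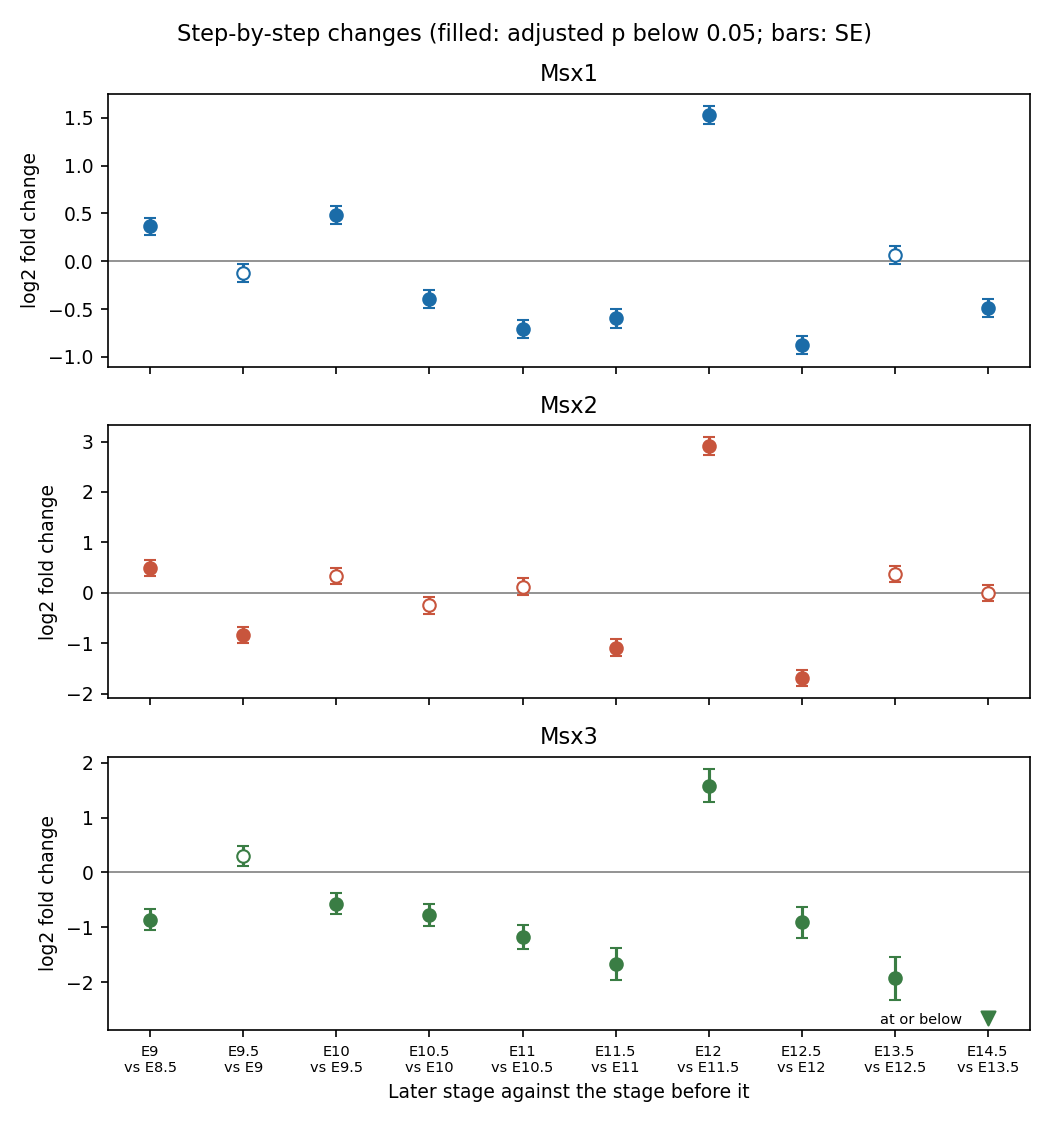
Log2 fold change of each stage against the stage before it (vertical axes) for the 3 genes, with SE bars. Filled points passed an adjusted p of 0.05, and the triangle for Msx3 at E14.5 marks an upper bound because that stage had 0 counts. All 3 genes rose at E12.

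The step into E12 was the only step at which all 3 genes rose. Msx2 averaged 46.6 ± 7.37 CPM at E12 and 6.20 ± 1.55 at E11.5, a ratio of 7.52, with a log2 fold change of 2.91 ± 0.17 (edgeR adjusted p = 8.14e-14). Msx1 averaged 71.7 ± 1.02 CPM at E12 and 24.8 ± 2.64 at E11.5 (log2 fold change 1.53 ± 0.10, adjusted p = 2.76e-13), and Msx3 averaged 2.36 ± 0.687 and 0.764 ± 0.205 (1.59 ± 0.30, adjusted p = 4.58e-05). Both stages of this step stand apart from the rest, and 33.3% of all genes passed as higher and 35.6% as lower. With E11 in place of E11.5, a comparison chosen after seeing the data, the log2 fold change was 0.93 ± 0.09 for Msx1 (edgeR adjusted p = 5.31e-09) and 1.82 ± 0.16 for Msx2 (5.98e-10), while Msx3 had -0.09 ± 0.25 (0.784). In that comparison 64.1% of genes passed, 31.3% as higher and 32.8% as lower at E12. With neither E11.5 nor E12, comparing E12.5 with E11, the log2 fold change was 0.05 ± 0.09 for Msx1 and 0.13 ± 0.16 for Msx2 (adjusted p = 0.827 and 0.704), while Msx3 had -0.99 ± 0.27 (0.0117). In that comparison 6.59% of genes passed as higher and 6.94% as lower. The E12.5 libraries were above those of E11.5 for Msx1 (log2 fold change 0.65 ± 0.10, adjusted p = 4.89e-06) and Msx2 (1.22 ± 0.17, adjusted p = 2.67e-06), with 27.5% of genes passing. Within E12, Msx2, Msx3 and the share of counts in ribosomal protein genes ran in the same order, highest in library a and lowest in library c. Within E13.5 library c had the most Msx1 and Msx2 and the highest share. Msx3 had 4, 7 and 6 counts in E13.5 libraries a, b and c, too few to order them. Msx1 varied little within E12 in CPM, which rests on TMM factors of 0.797, 0.874 and 0.985 in libraries a, b and c. Its counts there were 910, 923 and 1286, and those of Msx2 were 690, 597 and 702. The library totals were 16138756, 14516518 and 18298159. How far the scaling sets the size of the differences within E12 was not tested. The part of the ribosomal protein share in the Msx levels was not tested.

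Msx1 was the most abundant member per kilobase of exon at every stage, and the mix of the family changed. Relative to Msx1 in the same library, Msx2 stood at 28.2 ± 2.59% at E8.5, 30.8 ± 3.996% at E9, 18.7 ± 0.655% at E9.5, 16.8 ± 0.960% at E10, 18.6 ± 2.87% at E10.5 and 33.1 ± 4.63% at E11 (mean ± SD, n = 3, per kilobase). It then stood at 23.4 ± 3.71% at E11.5, 61.4 ± 10.03% at E12, 35.1 ± 2.22% at E12.5, 42.9 ± 4.49% at E13.5 and 60.6 ± 1.04% at E14.5. This ratio is taken within a library and does not depend on scaling between libraries. Stages held 95.47% of the variance of its log2 value, and a permutation test over stage labels gave p = 1e-05, the smallest that 100000 resamples can give. Of the 3 genes' summed counts per kilobase, Msx3 made up 30.5 ± 1.34% in E8.5 libraries, 9.05 ± 2.60% in those of E10.5 and 3.001 ± 0.494% in those of E12.5, and had 0 counts at E14.5. Msx2 made up 15.2 ± 1.07% at E8.5, 36.9 ± 3.54% at E12 and 37.7 ± 0.402% at E14.5. The share of Msx1 was 54.3 ± 1.74% at E8.5, 78.5 ± 1.41% at E11.5 and 62.3 ± 0.402% at E14.5. The mean share of Msx3 was above that of Msx2 at E8.5 and E9.5 and below it at E9 and from E10 on.

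**Figure D3:**
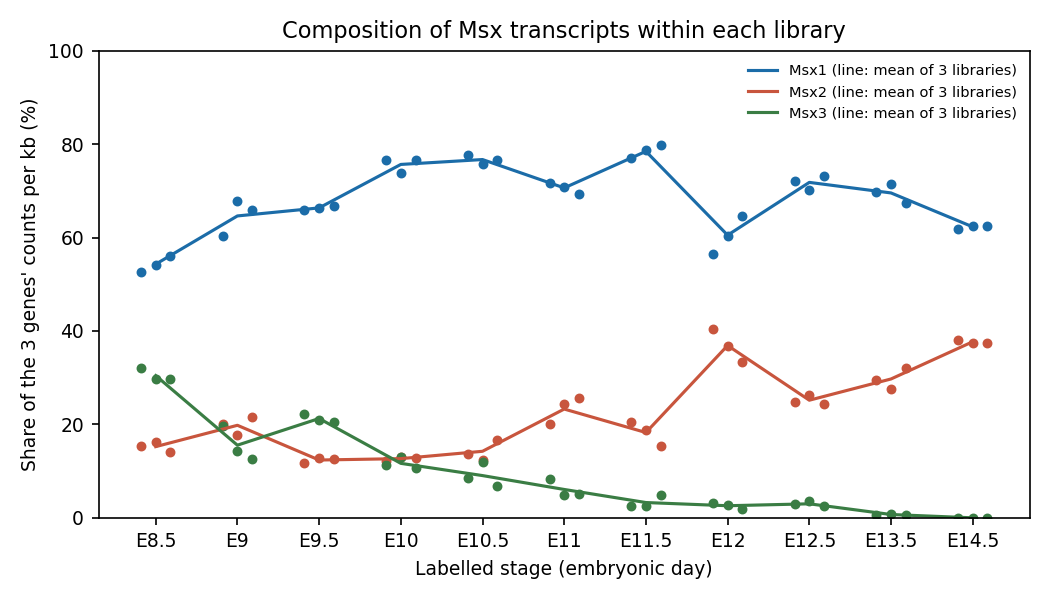
Share of each gene in the summed counts per kilobase of Msx1, Msx2 and Msx3 (vertical axis, percent) in each library (points) and as the stage mean (lines). Msx3 goes down to 0 at E14.5 while Msx2 makes up 37.7% there.

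Genes of the BMP pathway that are standard partners of Msx1 and Msx2 moved in both directions. At E14.5 against E8.5, 12 of 22 passed as higher, 5 as lower and 5 did not pass, with a median log2 fold change of 0.52 against 0.16 over all genes. Of all genes 41.1% were higher and 33.5% lower. This split depends on scaling, as do the shares of all genes. It was 18 higher and 3 lower with library totals alone, where 52.9% of all genes were higher and 21.2% lower. It was 7 higher and 9 lower with the gene length trend removed, where 27.1% of all genes were higher and 47.2% lower. The ligand gene Bmp4 averaged 24.1 CPM at E14.5 and 8.82 at E8.5 (log2 fold change 1.45), and the receptor gene Bmpr2 averaged 124 and 40.5 CPM (1.62). Chrd, which encodes the BMP antagonist chordin, averaged 26.0 and 3.21 CPM (3.02), while Nog, which encodes the antagonist noggin, averaged 3.54 and 10.6 (-1.58). At E12 against E11.5, 8 rose, 6 fell and 8 did not pass, with a median of 0.09 against -0.08 over all genes, where 33.3% of all genes rose and 35.6% fell. With library totals alone 6 rose and 11 fell, where 22% of all genes rose and 49% fell. With the gene length trend removed 14 rose and 2 fell, where 45.7% of all genes rose and 19% fell. The members with the largest changes there were Id3, Id1 and Bmp4, which rose, and Chrd, which fell; Id genes are direct BMP targets. Id3 had 402, 301 and 211 CPM in E12 libraries a, b and c, against 67.6, 71.6 and 71.9 in those of E11.5 (log2 fold change 2.11 ± 0.17, edgeR adjusted p = 1.81e-11). Id1 had 193, 160 and 101 CPM at E12, against 44.3, 44.3 and 43.2 at E11.5 (1.78 ± 0.18, adjusted p = 2.14e-09). Within E12 both Id genes ran in the same order of libraries as Msx2 and as the ribosomal protein share, and their part was not tested. Bmp4 averaged 21.1 CPM at E12 and 10.1 at E11.5 (1.06), and Chrd 8.51 and 19.3 (-1.17). At E12.5 against E12, 7 rose, 8 fell and 7 did not pass, near the 32.0% of all genes that rose and the 31.0% that fell. The counts were 8 and 5 with library totals alone (42% and 21.9% of all genes), and 2 and 10 with the gene length trend removed (15.1% and 41%). Id3 and Id1 fell at this step with log2 fold changes of -1.37 each.

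Many mesenchyme genes of the skull vault rose at E12, while most genes of osteoblasts, the bone-forming cells, fell or did not pass. Of 22 mesenchyme genes, 13 rose at E12 against E11.5, 2 fell and 7 did not pass (median 0.51, against -0.08 over all genes, of which 33.3% rose and 35.6% fell). These counts were 9 and 6 with library totals alone (22% and 49% of all genes), and 21 and 0 with the gene length trend removed (45.7% and 19%). At E12.5 against E12, 7 rose, 13 fell and 2 did not pass, where 32.0% of all genes rose and 31.0% fell. Here the counts were 8 and 9 with library totals alone (42% and 21.9% of all genes). They were 1 and 15 with the gene length trend removed (15.1% and 41%). The largest rises at E12 were in En1 (8.32 CPM at E12 and 1.905 at E11.5), Prrx2 (55.3 and 13.4), Alx1 (50.6 and 14.2) and Six2 (81.1 and 23.9), all of which encode homeodomain factors. Without E12 library c, 6 of the mesenchyme genes fell at that step in place of 2. Twist1, the gene for a basic helix-loop-helix factor of suture mesenchyme, had 69.0 CPM at E12 and 21.8 at E11.5, and fell again at E12.5 (27.4). Of 11 osteoblast genes, 0 rose at E12, 6 fell and 5 did not pass (median -0.45). With library totals alone 0 rose and 7 fell (22% and 49% of all genes). With the gene length trend removed 2 rose and 5 fell (45.7% and 19%). Ibsp, Phex, Postn and Sp7 had the largest falls, and Sp7, an osteoblast transcription factor, averaged 1.499 CPM at E12 and 5.65 at E11.5. With E11 in place of E11.5, 12 of the 22 mesenchyme genes were higher at E12 and 7 lower, and of the osteoblast genes 2 were higher and 3 lower. Of all genes 31.3% were higher there and 32.8% lower. At E14.5 against E8.5, 12 mesenchyme genes rose, 7 fell and 3 did not pass, where 41.1% of all genes rose and 33.5% fell. These counts were 5 and 10 with the gene length trend removed, where 27.1% of all genes rose and 47.2% fell. Of the osteoblast genes 8 rose, 0 fell and 3 did not pass (median 4.18). With the gene length trend removed 8 rose and 2 fell (27.1% and 47.2% of all genes). Over the same span Msx1 had a log2 fold change of -0.75 and Msx2 of 0.36.

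Genes of the dorsal neural tube, the known site of Msx3, were mostly lower at the last stage, as Msx3 was, but did not follow it up to E10.5. At E10.5 against E8.5, while Msx3 fell, 7 of 13 rose, 4 fell and 2 did not pass (median 0.44, where 28.2% of all genes rose and 21.3% fell). At E12.5 against E10.5, 2 rose and 8 fell (18.8% and 17.2% of all genes), and at E14.5 against E12.5, 0 rose and 8 fell (25.3% and 28.6%). At E14.5 against E8.5, 12 of 13 fell, 0 rose and 1, Zic1 (named after its values were seen), did not pass, with a median log2 fold change of -1.65, where 33.5% of all genes fell. In number, 12 fell with library totals alone and 13 with the gene length trend removed, where 21.2% and 47.2% of all genes fell. Wnt1, a roof plate signal, averaged 0.0866 CPM at E14.5 and 31.4 at E8.5, and Olig3, a progenitor factor, 0.0178 and 6.62. Pax7, a factor of dorsal progenitors, averaged 4.76 and 25.4 CPM (log2 fold change -2.42). At E12 against E11.5, 12 of 13 rose and 0 fell (median 1.01), where 33.3% of all genes rose, and Msx3 rose too. With library totals alone 8 of the 13 rose and 1 fell, where 22% of all genes rose and 49% fell. Wnt1 had 3.35, 3.55 and 4.28 CPM in E12 libraries a, b and c, against 0.231, 0 and 0.579 at E11.5, and was at 0 counts in all 3 libraries of E12.5. With E11 in place of E11.5, 6 of the 13 were higher at E12 and 4 lower, where 31.3% of all genes were higher and 32.8% lower. The summed level of the list was 349 ± 5.06 CPM at E8.5, 396 ± 9.05 in E11.5 libraries, 580 ± 75.6 in those of E12, 475 ± 11.8 in those of E12.5 and 166 ± 2.87 in those of E14.5. The sum was thus above its E8.5 level at E11.5, E12 and E12.5 and below it at E14.5. Msx3 was below its E8.5 level at all of these. Zic1 made up much of the sum, with a mean of 291 CPM in E12 libraries and 254 in those of E12.5. The mean log2 CPM of the list gives each gene the same weight and was 4.02 at E8.5. It was lower, as Msx3 was, in these later libraries. The values were 2.19 in E14.5 libraries, 3.06 in those of E11.5, 3.43 in those of E12.5 and 3.97 in those of E12. From E9 to E10.5 it was higher, between 4.06 and 4.37, while Msx3 was lower.

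Other tissues in which Msx genes are known moved with stage as well. Of 9 neural crest genes, 4 rose and 5 fell at E14.5 against E8.5 (median -0.89), and of 10 surface ectoderm genes, 7 rose and 3 fell (median 0.45), where 41.1% of all genes rose and 33.5% fell. With the gene length trend removed, 2 neural crest genes rose and 5 fell, and 3 ectoderm genes rose and 3 fell. Under that setting 27.1% of all genes rose and 47.2% fell. The summed ectoderm level was 74.8 CPM at E10.5, 208 ± 16.9 at E12 and 1154 ± 62.8 at E14.5. Of 8 limb bud genes only 3 had enough counts to be tested, and between 3 and 5 of the 8 were at 0 counts at every stage; their sum ran between 3.43 and 38.2 CPM. Of 6 tooth germ genes 5 were tested, and their sum ran between 18.5 CPM at E12.5 and 103 at E10.5. Among 13 genes named as partners or targets of Msx factors, 12 were tested, of which 4 rose and 8 fell at E14.5 against E8.5 (median -0.74), and 7 rose, 1 fell and 4 did not pass at E12 against E11.5 (median 0.62), where 33.3% of all genes rose and 35.6% fell. With the gene length trend removed, 2 rose and 9 fell at E14.5 (27.1% and 47.2% of all genes). Under that setting 10 rose and 0 fell at E12 (45.7% and 19% of all genes). With library totals alone 5 rose and 3 fell at E12 (22% and 49% of all genes). Fgf3, a fibroblast growth factor gene, averaged 0.313 CPM at E14.5 and 7.20 at E8.5, and Dlx2, a homeobox gene of the facial mesenchyme, 3.68 and 11.2. Pax3, Zic1, Bmp4 and Dlx5 stand in more than 1 list. The part of these cell types in the Msx levels was not tested.

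**Figure D4:**
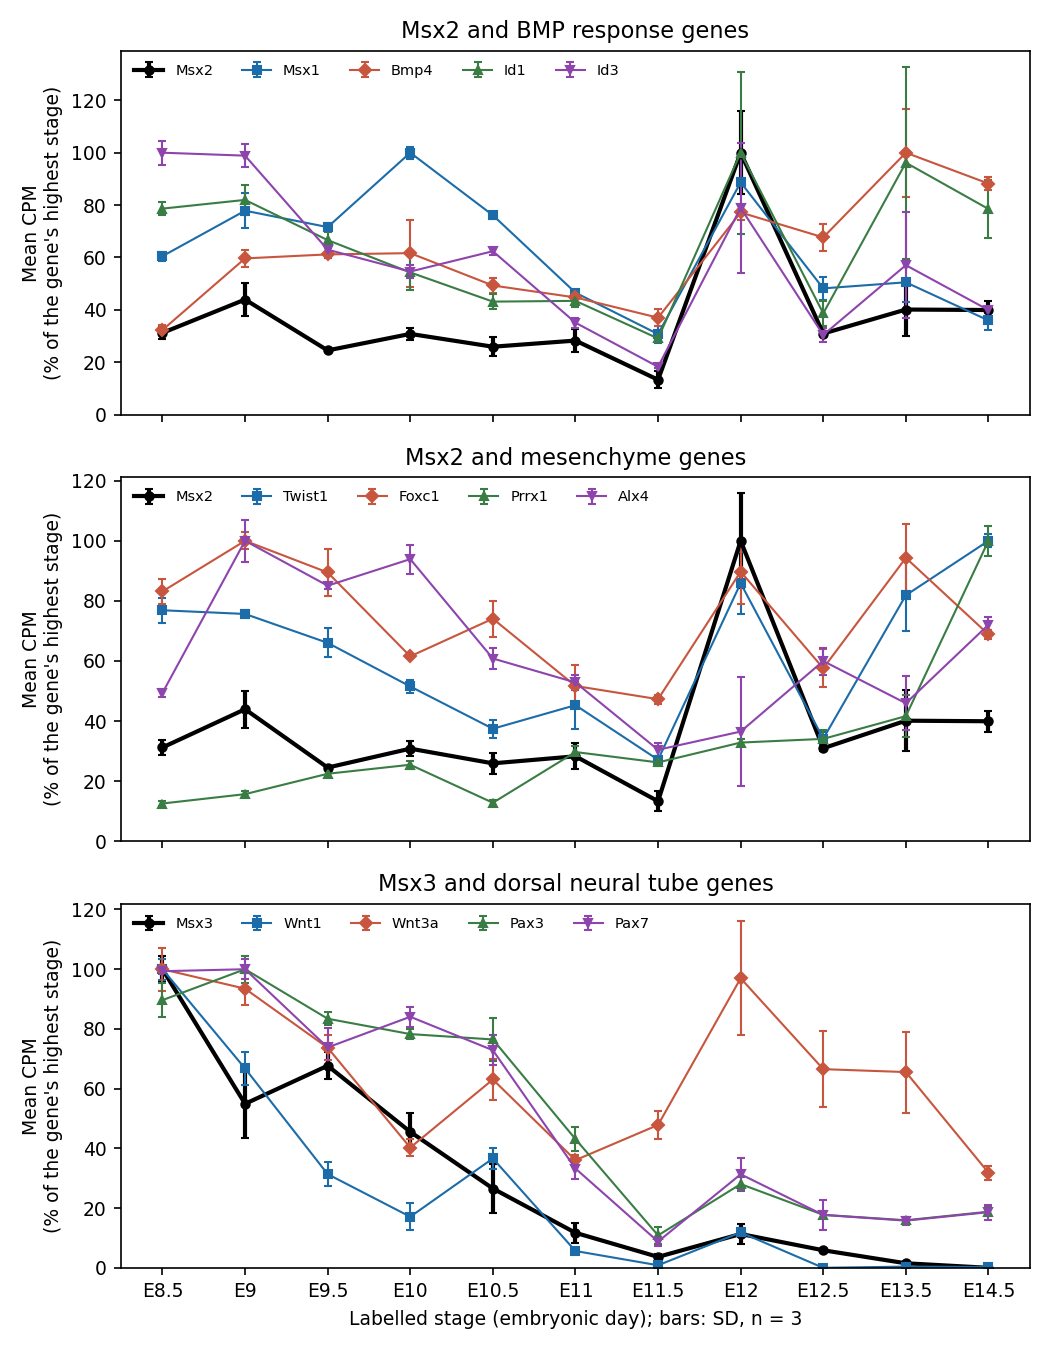
Stage means as a percentage of each gene's own highest stage (vertical axes), with SD bars (n = 3), for Msx2 beside BMP and Id genes, Msx2 beside mesenchyme genes and Msx3 beside dorsal neural tube genes, the genes of each panel picked after their values were seen. Msx1, Msx2, Id1 and Id3 all stand higher at E12 than at E11.5, and Wnt1, Pax3 and Pax7 stand below their E8.5 levels at E14.5, as Msx3 does.

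The genes whose stage profile was most like each member were found by Pearson's r of mean log2 CPM over the 11 stages, among 12910 genes with at least 5 CPM at their highest stage. These values describe profiles, and all genes compared come from the same libraries and share their scaling. For Msx1 they were Atp5g2 (r = 0.939) and Atp5a1 (0.927), both subunit genes of mitochondrial ATP synthase, Klf1 (0.925), an erythroid factor, Rpp38 (0.925) of RNase P and Kcnn4 (0.924), a potassium channel. Klf1 averaged 6.96 CPM at E12 and 0.918 at E11.5. For Msx2 they were Efna4 (0.924), an ephrin, Cope (0.922) of the coatomer, Ryk (0.920), a Wnt receptor, Idh2 (0.915), a mitochondrial isocitrate dehydrogenase, and Hscb (0.913), an iron-sulfur cluster co-chaperone. All of these peak at E12, and when the 3 stages that stood apart were left out, their r with Msx2 ran between 0.335 and 0.685. For Msx3 they were Rps6ka6 (0.995), a kinase, Sinhcaf (0.994), of the Sin3 complex, Bcat1 (0.989), of branched-chain amino acid breakdown, Suv39h2 (0.988), a histone methyltransferase, and Smarca5 (0.988), a chromatin remodeller. Their r with Msx3 was at least 0.987 without those 3 stages. Without those stages 1 of the 5 for Msx1, 0 for Msx2 and 2 for Msx3 were still among the 5 most alike. Between members, r was 0.49 for Msx1 and Msx2, 0.71 for Msx1 and Msx3, and -0.05 for Msx2 and Msx3.

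**Figure D5:**
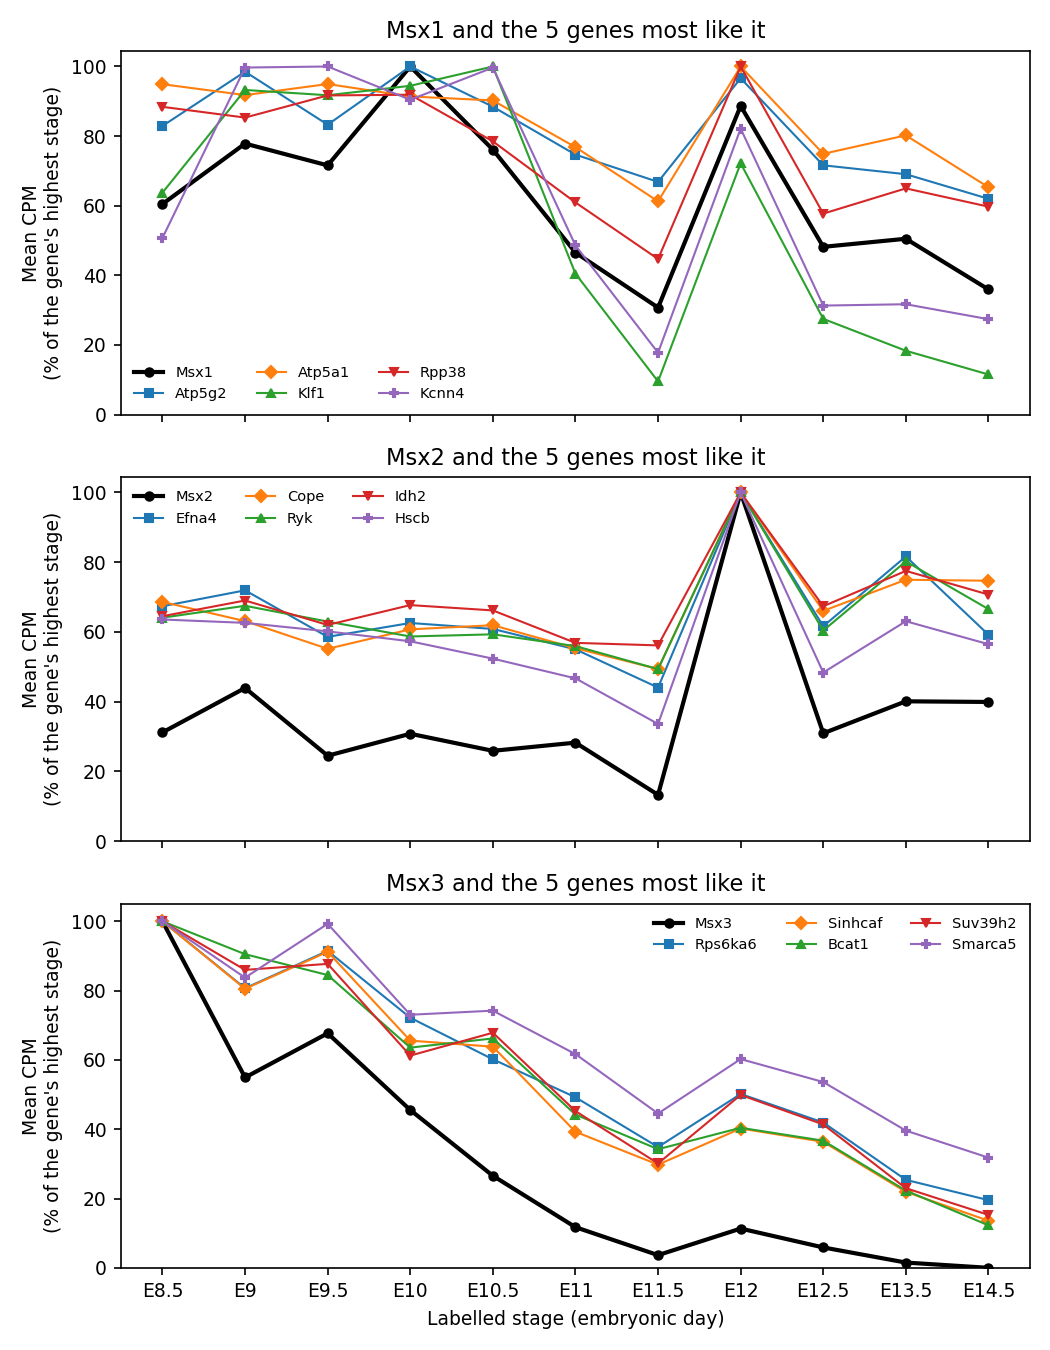
Stage means as a percentage of each gene's own highest stage (vertical axes) for each Msx gene (black) and the 5 genes most like it. The genes like Msx2 share its high point at E12. The genes like Msx3 are highest at E8.5 and lowest at E14.5, and stand higher at E12 than at E11.5.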

How the data were processed

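The authors deposited a table of raw read counts per gene for 33 libraries plus the exonic length of every gene, per the file headers. Reads were processed with cutadapt 1.9.1, HISAT2 2.0.1 and HTSeq 0.6.1 on GRCm38, per the submitters' processing notes. Annotation release and strand setting: not given in the sources used here. Column names give the stage and a letter, and nothing links the letter to a label's replicate number. Same-letter libraries of different stages did not deviate together (mean r -0.008, above 0.1 in 5 of 165 pairs), so letters were not used as pairs. No libraries of a stage were duplicates.

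Counts were tested with edgeR 4.0.16 (R 4.3.3): genes were kept by its default filter by stage, scaled by TMM, and fitted with a quasi-likelihood model with a mean for each stage (22 residual degrees of freedom), with Benjamini-Hochberg adjustment over 20073 genes and a threshold of 0.05. CPM used the scaled library sizes, the ratio of Msx2 to Msx1 a pseudocount of 0.5 counts, and floors 3 counts over a group. The test was checked on simulated data. Alternatives were DESeq2 1.42.0, other scalings and filters, a replicate block, a gene length correction and leaving out libraries. The gene length correction was fitted to counts not scaled for library size, so it also removed each library's overall level a second time. Named genes were the members, up to 4 passing genes of each list with the largest change, the 5 most like each member, and bone markers; other genes were named after their values were seen. The members and lists were chosen with earlier results of these data known. Figures were drawn with matplotlib 3.10.9. A comparison of the members' coding sequence is not reported here.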

Additional observations from a re-analysis of the deposited data

How the results depend on the processing

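Of the member results under the alternatives other than leaving out a library, 362 kept their side of the threshold, 4 no longer passed and 19 newly passed. A further 3 changed sign where either fit passed. Changes of sign where neither fit passed are among the 362. Msx1 at E13.5 against E12.5 ran from -0.05 to 0.09, and Msx2 at E14.5 against E13.5 from -0.13 to 0.16. With the gene length trend removed, Msx2 at E14.5 against E8.5 was -0.24, and Msx1 at E10.5 against E8.5 was -0.12. Under that setting Msx1 and Msx2 at E9 against E8.5 were 0.20 and 0.33 and did not pass, and Msx2 at E10.5 against E8.5 was -0.73 and passed. These values carry a shift of all genes, whose medians moved by -0.58, -0.49 and -0.18 at E14.5, E10.5 and E9 against E8.5. With E11 libraries in place of E11.5, chosen after seeing the data, Msx3 at E12 was -0.0853. With library totals alone Msx3 at E10 against E9.5 was -0.48 and did not pass, and with the replicate block Msx2 at E14.5 against E8.5 was 0.36 with an adjusted p of 0.0553; the block changed no other member call. Msx2 at E14.5 against E12.5 passed with DESeq2 size factors (0.46), totals alone (0.51), no filter (0.42), a stricter filter (0.43), the DESeq2 test (0.46), without all libraries of E11.5, E12 and E13.5 (0.42) and with only the libraries compared (0.42). Msx2 at E13.5 against E12.5 passed with the first 5 of these (0.39, 0.35, 0.40, 0.40 and 0.39). With totals alone, without the 3 stages, and with only the libraries compared, Msx2 at E10 against E9.5 was 0.42, 0.30 and 0.32 and passed. Msx2 at E10.5 against E8.5 passed without the 3 stages (-0.30) and with only the libraries compared (-0.29), and Msx2 at E12.5 against E10.5 passed with only the libraries compared (0.28).

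Leaving out each library in turn gave 0.29 to 0.42 for Msx2 at E14.5 against E8.5 (20 of 33 not passing), 0.31 to 0.43 at E14.5 against E12.5 (8 passing), 0.15 to 0.50 at E13.5 against E12.5 (9 passing) and 0.39 to 0.59 at E9 against E8.5, lost without E8.5 a or c or E9 a or c. For Msx3 it gave -0.69 to -0.51 at E10 against E9.5, lost without E9.5 a, E10 a or E10 c, -1.04 to -0.59 at E10.5 against E10, lost without E10 b, E10.5 a or E10.5 c, and -1.10 to -0.69 at E12.5 against E12, lost without E12 a.

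Over all tested genes the share of calls at E14.5 against E8.5 that were higher was 71.3% with totals alone and 36.5% with the length trend removed, and the median log2 change shifted by 0.43 and -0.58. At E12 against E11.5 it shifted by -0.37 and 0.44. The shifts with the length trend removed include the library level that this setting took out a second time. Of the counts of all tested genes, 49 moved by over 1.5 times and 1157 did not. At E14.5 against E8.5, 8243 genes were higher, against 5446 with the length trend removed, and 6731 lower, against 4265 with totals alone. At E10.5 against E10, 1150 were higher and 549 lower, against 3169 and 2463 with only the libraries compared. Beyond that repeated removal of library level, the cause of these changes was not tested. Depth limits Msx3 most, with 66 counts over the group at E12.5 and 17 at E13.5.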
